A study of Mus musculus with 8 samples.

Results

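The Eph receptors are the largest family of receptor tyrosine kinases, and the ephrins are their membrane-bound ligands. Of the 22 genes of this family that were examined, 10 are described here in the mouse median eminence (ME): the receptors Epha4, Epha5, Epha7, Ephb2 and Ephb4 and the ligands Efna1, Efna5, Efnb1, Efnb2 and Efnb3. The list was drawn up around Epha7, which had been chosen by its ratio of tanycyte to other cells among kinases in the same single cells, with its possible ligands and the related receptors placed beside it. That ratio is therefore given below as a description and carries no test. The single-cell table held 27998 genes and the bulk data 55450, and all 10 genes were present in both.

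Eph receptors and ephrins sit on the surfaces of touching cells and signal in both directions, forward into the cell that carries the receptor and in reverse into the cell that carries the ligand. Class A ephrins hang on a lipid anchor and prefer EphA receptors, class B ephrins span the membrane and prefer EphB receptors, and EphA4 also binds class B ephrins. The family is known for guiding axons, sharpening boundaries between tissues, patterning vessels and holding stem cells in their niches. Tanycytes are elongated relatives of ependymal cells that line the floor of the third ventricle and reach with their end-feet to the capillaries and the pial surface of the ME.

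Single cells came from the ME of 10 wild-type (WT) C57BL/6 female mice, 2 months of age, which were pooled into 1 droplet library, and the study's methods give the substrain as C57BL/6N. Bulk RNA was taken from whole dissected ME of 3 control mice, labelled WT, and of 4 mutant mice labelled Rax::BrafV600E, all C57BL/6 and 2 months of age in the labels. In the mutant mice a tamoxifen-inducible Cre under the Rax gene switched on the oncogenic Braf allele in Rax+ cells. The study's methods, in a sentence that covers control and mutant mice, place dissection at 2 months after tamoxifen. They have tamoxifen given to adult mice, so the age in the labels and this time do not match. Whether control mice carried Cre or the Braf allele is not given in the sources used here, and the sex of the bulk mice is not in the labels. The female transcript Xist reached 134 CPM in mutants 3 and 4 and at most 1.5 CPM in the other bulk libraries.

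The genes on which the single-cell result turns are the receptor Epha7, its ligand Efna5 and Ephb4, the EphB receptor with the highest level in the tanycyte-like cluster, and they were picked for display after their values were seen. To show their regulatory sequence, the 250 bases before the annotated start are given 5′ to 3′ from RefSeq on GRCm38.p6. Capitals mark matches, on either strand, to TAATTN (the core bound by many homeodomain proteins, of which Rax is one), CCAAT (the CCAAT box), GGGCGG (the GC box) and TATAAA (the TATA box). The stretches are chr4:28812881-28813130 on the plus strand for Epha7, chr5:137349859-137350108 on the plus strand for Ephb4 and chr17:62881318-62881567 on the minus strand for Efna5.
Epha7: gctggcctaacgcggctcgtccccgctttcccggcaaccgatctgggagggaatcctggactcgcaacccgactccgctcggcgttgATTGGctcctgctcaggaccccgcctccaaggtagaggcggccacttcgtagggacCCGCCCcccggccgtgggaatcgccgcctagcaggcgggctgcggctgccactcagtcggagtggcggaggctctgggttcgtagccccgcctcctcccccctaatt
Ephb4: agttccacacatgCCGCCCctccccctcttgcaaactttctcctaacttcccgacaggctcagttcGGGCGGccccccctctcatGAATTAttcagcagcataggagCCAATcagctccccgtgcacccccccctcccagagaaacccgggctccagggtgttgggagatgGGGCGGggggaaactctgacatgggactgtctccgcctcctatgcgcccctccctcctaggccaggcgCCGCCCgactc
Efna5: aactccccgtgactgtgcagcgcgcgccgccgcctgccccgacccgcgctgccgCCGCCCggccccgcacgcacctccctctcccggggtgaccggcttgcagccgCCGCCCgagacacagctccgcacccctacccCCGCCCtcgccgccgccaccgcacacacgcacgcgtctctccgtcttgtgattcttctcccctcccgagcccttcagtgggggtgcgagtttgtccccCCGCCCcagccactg
The Epha7 stretch held 1 CCAAT box and 1 GC box, the Ephb4 stretch 1 TAATTN, 1 CCAAT box and 4 GC boxes, and the Efna5 stretch 4 GC boxes and no other of these motifs. The window of a second annotated Epha7 start (chr4:28812895-28813144) held 1 TAATTN, 2 CCAAT boxes and 1 GC box. Its TAATTN is the site whose letters TAATT end the printed Epha7 stretch, where the window edge cuts it short, so it went uncounted there. Among all 32851 promoter entries of the same length, 24.9% held TAATTN, 33.8% CCAAT, 32.7% GGGCGG and 12.4% TATAAA. Of the described genes 9 had an entry, with 60.0% (Efnb1) to 74.8% (Efna5) G and C against a median of 52.4% over all entries, and only Efnb2 held a TATA box. Epha5 and the upstream start of Efna1 also held 1 TAATTN each.

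The single-cell library held 990 cells and 9846289 UMIs (unique molecular identifiers, each marking 1 captured transcript), with a median of 7832 UMIs per cell. Clustering without the family's genes gave 12 groups of cells, which were named by at least 3 markers at 3 or more times their level in all other cells, a cut set after the data were seen. The VLMC-like cluster (vascular and leptomeningeal cells) also met it for 7 of 7 endothelial and 5 of 6 mural markers, the macrophage- or microglia-like cluster for 4 of 4 mast cell markers and the pars tuberalis-like cluster for 3 of 5 markers of other pituitary cells, and a cluster led by Krtdap and Nov, with 3 of 5 arachnoid barrier markers, was left unnamed and is called the Slc47a1 cluster. Tanycytes were set as the clusters in which Rax, Scn7a and Col25a1 were each above their level in all other cells, and these were a tanycyte-like cluster of 179 cells, with 7 of 8 tanycyte markers, and an ependymal-like cluster of 45 cells, with 5 of 6 ependymal and 4 of 8 tanycyte markers. Rax stood at 540 CPM (the UMIs of a gene divided by all UMIs of those cells, times 1000000) in the former and 601 CPM in the latter, against 19.2 CPM in all other cells. The highest Rax level elsewhere was 114 CPM in the pars tuberalis-like cluster, where Scn7a was also at 239 CPM. Erythrocyte-like cells spent 92.7% of their UMIs on haemoglobin, against 0.503% in tanycyte-like cells, so CPM of other genes are low there and the 81 macrophage- or microglia-like cells, with a median of 7681 UMIs, serve below as the cells for background. A single library has no replicate, so intervals are exact 95% Poisson or binomial ones that cover counting error only, and single-cell differences are given without a test.

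Epha7, a receptor for class A ephrins, was the gene of the list with its transcripts most gathered in cells with tanycyte markers. Of its 98 UMIs, 85 (86.7%) fell in the 224 cells of both clusters, which gave 38.5 CPM (30.7 to 47.6) against 1.7 CPM (0.906 to 2.91) in all other cells and a ratio of 14.6 after adding 1 CPM to each. With erythrocyte-like cells left out the ratio was 13.2. Over the 11096 genes with at least 50 UMIs the median of this ratio was 1.39, and 1.05 without erythrocyte-like cells.

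Within these cells the level of Epha7 was 43.4 CPM (34.3 to 54.0) in the tanycyte-like cluster and 15.5 CPM (5.68 to 33.7) in the ependymal-like cluster, and the intervals did not overlap. The next clusters were the pars tuberalis-like with 4.23 CPM (0.513 to 15.3) and the Slc47a1 cluster of 23 cells with 4.2 CPM (0.106 to 23.4), whose intervals overlapped that of the ependymal-like cluster. No UMI of Epha7 was counted in either OPC-like cluster (oligodendrocyte precursor cells) or in NK- or T-like cells, for which the upper limits were 9.38 CPM in cycling and 11.8 CPM in Enpp6 OPC-like cells and 20.6 CPM in NK- or T-like cells. At least 1 Epha7 UMI was found in 34.6% of tanycyte-like cells and in 2.47% of macrophage- or microglia-like cells, whose median depths were 7892 and 7681 UMIs. At a depth of 3000 UMIs drawn from every cell, these shares came to 14.5% and 2.47%.

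**Figure D1:**
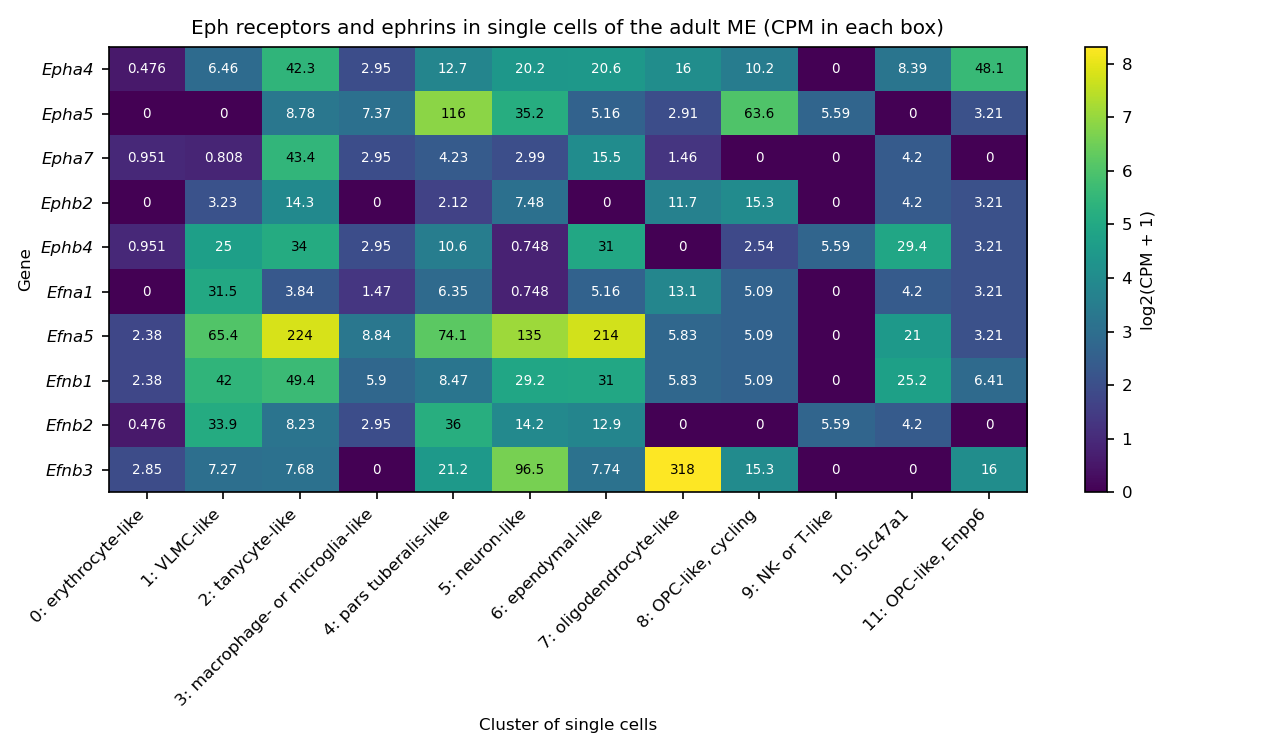
Each row is 1 of the 10 genes and each column 1 of 12 clusters of single cells, colour gives log2(CPM + 1) and the number in each box is CPM. Epha7 reached 43.4 CPM in the tanycyte-like cluster, Efna5 stood at 224 and 214 CPM in the tanycyte-like and ependymal-like clusters, Epha5 peaked in the pars tuberalis-like and Efnb3 in the oligodendrocyte-like cluster.

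Epha4, the EphA receptor that also binds class B ephrins, had its highest levels in tanycyte-like cells and in 1 of the 3 clusters of the oligodendrocyte lineage. It was highest in the Enpp6 OPC-like cluster, 22 cells led by Enpp6 and Fyn, at 48.1 CPM (26.9 to 79.3), and second in the tanycyte-like cluster at 42.3 CPM (33.4 to 52.8), and these neighbours did not differ beyond counting error. The ependymal-like cluster followed with 20.6 CPM (8.91 to 40.7) and the neuron-like cluster with 20.2 CPM (13.3 to 29.4). The other clusters of the lineage had lower values, with 16 CPM (8.0 to 28.7) in oligodendrocyte-like and 10.2 CPM (2.77 to 26.0) in cycling OPC-like cells. The oligodendrocyte-like interval overlapped that of the Enpp6 OPC-like cluster, and the cycling OPC-like interval lay below it. Of 161 UMIs, 52.8% were in cells with tanycyte markers, where the ratio to all other cells was 3.6.

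Epha5, an EphA receptor known from axon guidance, showed another distribution. The pars tuberalis-like cells, the hormone-producing cells of the pituitary stalk, held 116 CPM (87.7 to 152) and the cycling OPC-like cells 63.6 CPM (41.1 to 93.9), with overlapping intervals. The neuron-like cluster, led by Agrp and Npy, held 35.2 CPM (25.8 to 46.7), and the tanycyte-like cluster 8.78 CPM (5.02 to 14.3). The ratio of cells with tanycyte markers to all others was 0.486, or 0.358 without erythrocyte-like cells and 0.911 with every cell drawn down to 3000 UMIs, which weights each cell alike.

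Over all 9 EphA genes, the sum of receptor transcripts was 154 CPM (121 to 194) in pars tuberalis-like cells and 96.6 CPM (82.9 to 112) in tanycyte-like cells, without overlap. In tanycyte-like cells Epha7 gave 44.9% (37.4 to 52.6) and Epha4 43.8% (36.3 to 51.4) of the EphA UMIs, so the pair made up most of the class. In pars tuberalis-like cells Epha5 alone gave 75.3% (63.9 to 84.7). Of the EphA genes outside the list only Epha3 reached 10 CPM in any cluster, with 12.7 CPM in pars tuberalis-like cells, and Epha8 had 0 UMIs in the library.

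Ephb4, the receptor known for marking veins and for binding ephrin-B2, was highest in the tanycyte-like cluster with 34.0 CPM (26.1 to 43.6). The ependymal-like cluster with 31.0 CPM (16 to 54.1), the Slc47a1 cluster with 29.4 CPM (11.8 to 60.5) and the VLMC-like cluster with 25.0 CPM (17 to 35.5) all overlapped it. The neuron-like cluster, the deepest with a median of 31422 UMIs per cell, held 0.748 CPM. Its ratio of cells with tanycyte markers to all others was 4.49, or 3.5 without erythrocyte-like cells.

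Ephb2, a receptor best known at synapses and in axon guidance, was the scarcest of the list with 57 UMIs. Its levels of 15.3 CPM (5.6 to 33.2) in cycling OPC-like, 14.3 CPM (9.32 to 20.9) in tanycyte-like and 11.7 CPM (5.03 to 23.0) in oligodendrocyte-like cells could not be told apart by counting error. The ependymal-like cluster, although it carried tanycyte markers, had no Ephb2 UMI, with an upper limit of 9.52 CPM. In tanycyte-like cells Ephb4 supplied 55.4% (45.7 to 64.8) and Ephb2 23.2% (15.8 to 32.1) of EphB UMIs. The EphB receptor of oligodendrocyte-like cells was instead Ephb1, outside the list, at 78.7 CPM (59.1 to 103), and Ephb1 also led in the Enpp6 OPC-like cluster at 83.4 CPM (54.5 to 122), while Ephb3 was highest in cycling OPC-like cells at 25.4 CPM.

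The ligand transcripts of tanycytes were above all those of Efna5, ephrin-A5, a known binding partner of EphA7. Efna5 was the most abundant gene of the list with 812 UMIs, of which 60.6% lay in cells with tanycyte markers. The tanycyte-like cluster held 224 CPM (203 to 247) and the ependymal-like cluster 214 CPM (171 to 266), which overlapped. The neuron-like cluster followed with 135 CPM (116 to 157), below both without overlap, and then the pars tuberalis-like cluster with 74.1 CPM (51.6 to 103) and the VLMC-like cluster with 65.4 CPM (52.0 to 81.3). Oligodendrocyte-like, OPC-like and immune cells were at or below 8.84 CPM.

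At least 1 Efna5 UMI was seen in 81.0% of tanycyte-like cells against 4.94% of macrophage- or microglia-like cells, and in 49.7% against 2.47% at 3000 UMIs per cell. Cells with tanycyte markers thus held 86.7% of Epha7 UMIs and 60.6% of Efna5 UMIs, the rest of Efna5 lying mostly in neuron-like, VLMC-like and pars tuberalis-like cells. Tanycyte genes were also counted in pars tuberalis-like cells, and the part of free RNA in their Efna5 level was not tested. Rax there reached 114 CPM, and Epha7 4.23 CPM.

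Receptor and ligand were found in the same cells. Of the 68 cells with tanycyte markers that held an Epha7 UMI, 59 also held Efna5, where 53.1 would be the product of both shares. Efna5 was seen in 86.8% (76.4 to 93.8) of cells with Epha7 and in 74.4% (66.8 to 81.0) of those without, with median depths of 9170 and 7675 UMIs, and these intervals overlapped. Epha4 was seen in 26.5% (16.5 to 38.6) of cells with Epha7 and in 25.0% (18.4 to 32.6) of those without, with overlapping intervals, so no link of Epha4 to Epha7 was detectable at this depth.

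**Figure D2:**
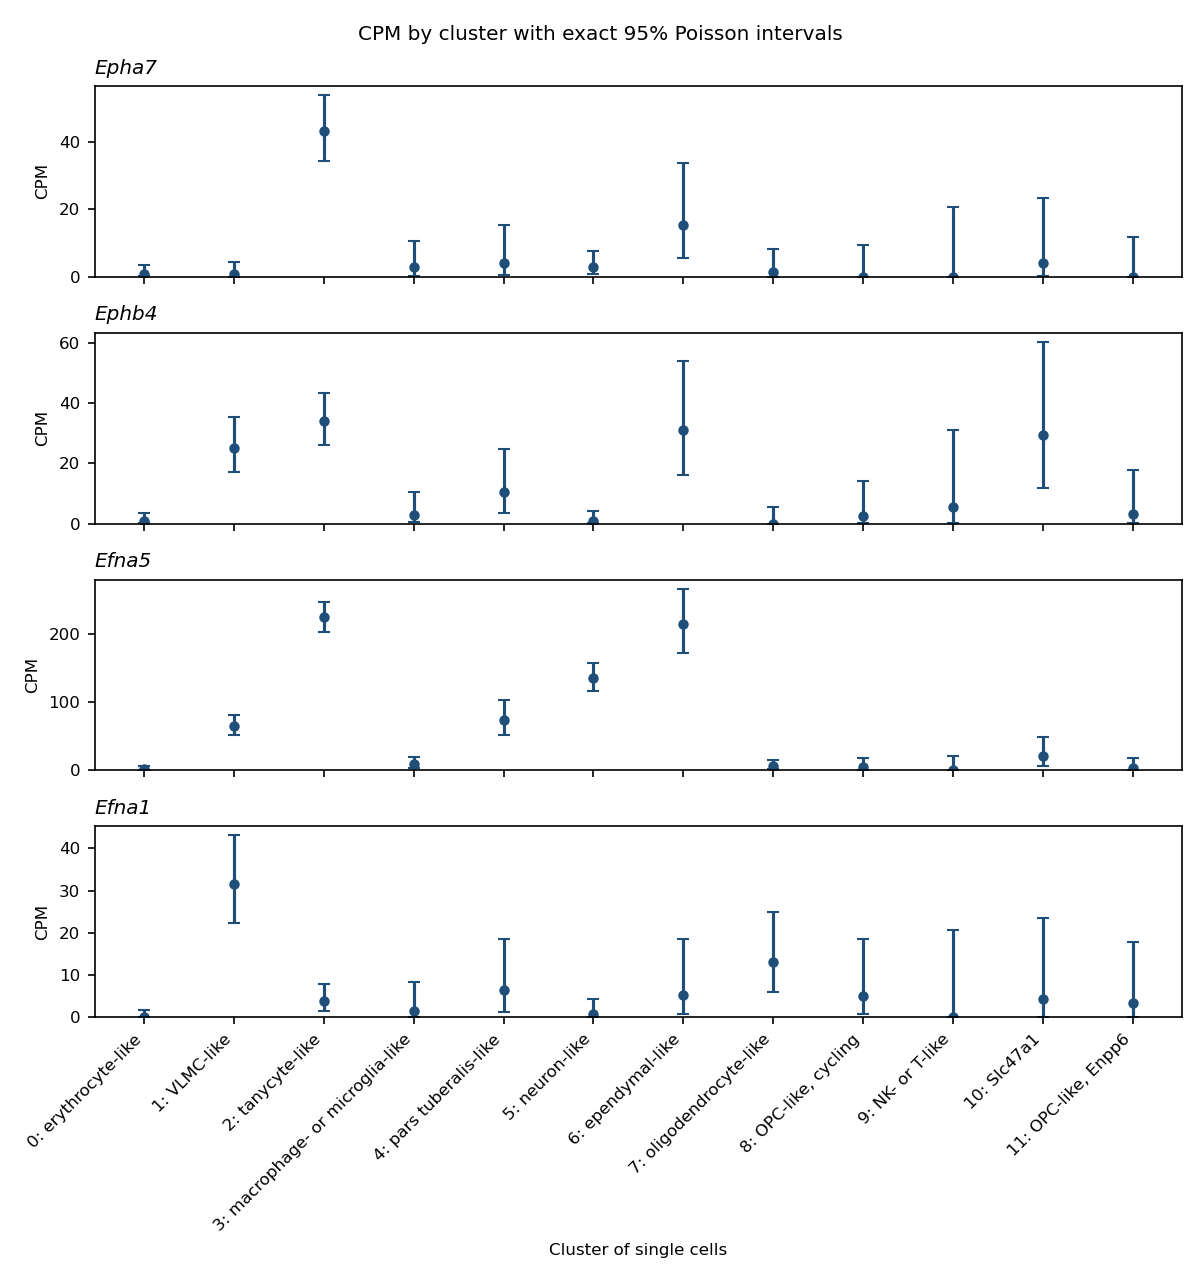
Panels give CPM of Epha7, Ephb4, Efna5 and Efna1 in each of 12 clusters, points are the values and bars exact 95% Poisson intervals for counting error. The tanycyte-like cluster leads for Epha7 (43.4 CPM), Efna5 (224 CPM) and Ephb4 (34.0 CPM), while Efna1 is highest in the VLMC-like cluster (31.5 CPM).

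Efna1, ephrin-A1, a ligand known from vessels, was highest outside the cells with tanycyte markers. The VLMC-like cluster held 31.5 CPM (22.4 to 43.1), and the oligodendrocyte-like cluster followed with 13.1 CPM (6.0 to 24.9), overlapping it. Tanycyte-like cells held 3.84 CPM (1.54 to 7.92). Endothelial cells were almost missing from the library: 5 cells carried at least 4 of 7 endothelial markers, a cut chosen after the values were seen, and the 4 of them in the VLMC-like cluster gave 4 of its 39 Efna1 UMIs.

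Over all class A ligands the tanycyte-like cluster stood at 263 CPM (240 to 288), of which Efna5 gave 85.4% (81.9 to 88.4), and the ependymal-like cluster at 250 CPM (203 to 305). The neuron-like cluster held 153 CPM (133 to 176) and the VLMC-like cluster 131 CPM (111 to 153), the latter divided between Efna5 at 50%, Efna1 at 24.1% and Efna2 at 22.8%. Elsewhere Efna2 also reached 28.9 CPM in the Enpp6 OPC-like cluster, and Efna3 13.5 CPM and Ephb6 27.7 CPM in neuron-like cells. Efna4, outside the list, was the other class A ligand highest in tanycyte-like cells, with 16.5 CPM (11.1 to 23.5), though pars tuberalis-like cells at 14.8 CPM (5.96 to 30.5) overlapped it.

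Efnb1, ephrin-B1, the X-linked ligand known from craniofacial development, stood at 49.4 CPM (39.7 to 60.7) in tanycyte-like and 42 CPM (31.4 to 55.1) in VLMC-like cells, which overlapped. The ependymal-like cluster held 31.0 CPM (16 to 54.1), and the neuron-like cluster 29.2 CPM (20.7 to 39.9). It gave 75.6% (66.9 to 83.0) of the class B ligand UMIs of tanycyte-like cells.

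Efnb2, ephrin-B2, the arterial ligand of EphB4, was highest in pars tuberalis-like cells at 36.0 CPM (21.0 to 57.6) and in VLMC-like cells at 33.9 CPM (24.4 to 45.9), with 8.23 CPM (4.61 to 13.6) in tanycyte-like cells. The 4 cells with endothelial markers gave 9 of the 42 Efnb2 UMIs of the VLMC-like cluster. Ephb4 and Efnb2 thus led in different clusters, while VLMC-like cells carried both.

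Efnb3, ephrin-B3, known at the midline of the nervous system, was an oligodendrocyte and neuron transcript. It stood at 318 CPM (277 to 363) in oligodendrocyte-like cells, the highest level of any described gene in any cluster, with a UMI in 97.7% of them. The neuron-like cluster held 96.5 CPM (80.6 to 115), and the tanycyte-like cluster 7.68 CPM (4.2 to 12.9). In oligodendrocyte-like cells Efnb3 made up 98.2% (95.5 to 99.5) of class B ligand UMIs, and the ratio of cells with tanycyte markers to all others was 0.17.

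**Figure D3:**
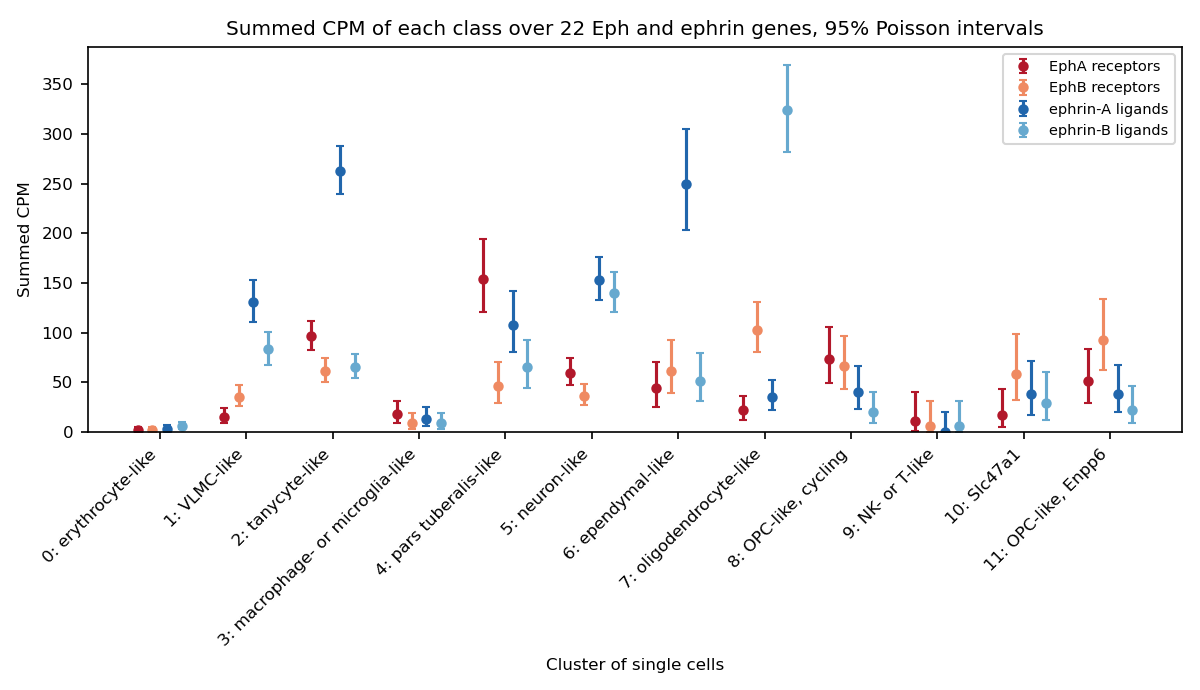
Points give the summed CPM of EphA receptors, EphB receptors, ephrin-A and ephrin-B ligands, over all 22 family genes, in each cluster, with exact 95% Poisson intervals. Ephrin-A ligands were highest in the tanycyte-like (263 CPM) and ephrin-B ligands in the oligodendrocyte-like cluster (324 CPM), while EphA receptors were highest in the pars tuberalis-like cluster (154 CPM).

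In all, 4 of the 10 genes (Epha7, Ephb4, Efna5 and Efnb1) had their highest level in the tanycyte-like cluster, as did 7.51% of the 11096 genes. Epha7 was chosen by its tanycyte ratio. For Ephb4 and Efnb1 the lead of all cells with tanycyte markers over the highest other cluster turned in other settings. Of the 10, 6 had a ratio over 1 between cells with tanycyte markers and all others. Of the 11096 genes, 70.6% had such a ratio, and the 6 of 10 lie near that background. The median ratio was 2.7 for the 10 genes, Epha7 among them, and 1.39 for all genes. Without erythrocyte-like cells 53.6% of all genes had a ratio over 1, and the median ratio of all genes was 1.05. In that setting the same 6 of the 10 were over 1, and their middle ratios fell to 1.93 (Ephb2) and 2.2 (Efnb1) among the 10. The list was drawn up around Epha7 with results of these data known, so these shares and medians carry no test.

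The genes outside the family whose levels over the 12 clusters ran closest to each described gene were looked up by Pearson's r of log2(CPM + 1), with 12 points that share 1 library. The 3 of highest r were taken from all genes with at least 50 UMIs. High r comes in part from that choice and carries no test. For Epha7 the closest genes were Mamdc2 (r = 0.947), Acot11 (r = 0.947) and Ccdc60 (r = 0.924), and for Efna5 Prdm16 (r = 0.961), Mid2 (r = 0.958) and 2900026A02Rik (r = 0.949). For Ephb4 they were Aldh2 (r = 0.916), Athl1 (r = 0.911) and Gja1 (r = 0.898), and for Efnb1 Aifm2 (r = 0.943), P3h3 (r = 0.931) and Dchs1 (r = 0.927). Epha4 ran closest to Fam73a (r = 0.958), Wdsub1 (r = 0.953) and Pccb (r = 0.945), and Ephb2 to Ttc37 (r = 0.943), Dcun1d3 (r = 0.868) and Skiv2l2 (r = 0.853). Epha5 was matched by Lrp11 (r = 0.887), Egr4 (r = 0.88) and Clstn3 (r = 0.875), Efna1 by Pde1c (r = 0.909), Sspn (r = 0.905) and Fancc (r = 0.877), Efnb2 by Atp2b4 (r = 0.888), Cers6 (r = 0.883) and Slc35g2 (r = 0.862), and Efnb3 by Ank3 (r = 0.906), Rcan2 (r = 0.904) and Aplp1 (r = 0.893).

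The bulk libraries addressed whether the levels differed between BrafV600E mutant and control ME. They held 4928456 to 13816596 counts, and 17874 to 40852 detected genes, with control 3, control 2 and BrafV600E 1 at the low end of detection. Of 20466 genes tested with edgeR's quasi-likelihood test, 0 (0%) passed an adjusted p of 0.05, 1661 (8.12%) had an unadjusted p under 0.05 and 1844 (9.01%) had groups that did not overlap. DESeq2 called 297 (1.46%) and limma-voom 0, with 2306 genes at an unadjusted p under 0.05. Each gene's log2 fold change is mutant minus control, with its standard error, and whole tissue cannot tell fewer cells of a type from less RNA per cell.

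None of the 10 genes was called by edgeR, 4 had an unadjusted p under 0.05 (3 higher in mutants and 1 lower) and 1 had groups that did not overlap. DESeq2 called 1, Efna1. With the number of detected genes as a covariate 0 of the 10 had an unadjusted p under 0.05, beside 1241 of all 20466 genes tested. Detected genes numbered 17874 to 34942 in controls and 25910 to 40852 in mutants, so this covariate and the group cannot be fully told apart. Leaving out the 3 libraries of fewest detected genes keeps control 1 as the only control. That setting rests on this library and is given below by effect size only. Both settings were added after the data were seen. The median log2 fold change of the 10 was 0.43, with 7 above 0. Over all 20466 genes tested the median was 0.13, with 11607 above 0. Rax was at 26.8, 40.9 and 143 CPM in controls 1 to 3 and at 175, 72.5, 33.2 and 48.6 CPM in mutants 1 to 4. The log2 fold change of Braf was 0.07 ± 0.43. Gene counts do not show the mutant base.

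On levels per kilobase of exon in control ME the ligands Efna1, Efna5 and Efnb3 led, while the ligand Efnb2 was among the lowest genes. Efna1 stood at 27.3 ± 17.2 CPM per kb (SD, n = 3), Efna5 at 23.3 ± 7.14 and Efnb3 at 14.3 ± 7.07, which did not differ beyond their spread. Efnb1 at 5.61 ± 3.13 and Ephb4 at 4.92 ± 3.19 CPM per kb followed, and they overlapped as well. Epha7 at 1.51 ± 0.225, Epha4 at 0.95 ± 0.561, Epha5 at 0.73 ± 0.377, Ephb2 at 0.628 ± 0.35 and Efnb2 at 0.596 ± 0.42 CPM per kb were lowest.

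Epha7 (chromosome 4, 28813131 to 28967499, plus strand, GRCm38) was at 13.4, 17.5 and 13.9 CPM in controls 1 to 3 and at 31.0, 20.7, 12.2 and 15 CPM in BrafV600E 1 to 4. The groups overlapped, since only mutants 1 and 2 lay above every control. The log2 fold change was 0.40 ± 0.42 (95% interval -0.54 to 1.34, adjusted p = 0.861 by edgeR). Without BrafV600E 1 it was 0.12, and without BrafV600E 3 it was 0.58. With the number of detected genes as a covariate it was 0.75 (adjusted p = 0.942 by edgeR). It was 0.27 without the 3 libraries of fewest detected genes.

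Epha4 (chromosome 1, 77367185 to 77515088, minus strand) was at 12.5, 3.64 and 6.76 CPM in controls and at 12.2, 31.2, 21.7 and 22.3 CPM in mutants. A total of 3 mutant libraries lay above all controls, and mutant 1 lay just under control 1. The log2 fold change was 1.52 ± 0.53 (95% interval 0.34 to 2.69, adjusted p = 0.514 by edgeR). It was 0.89 with the number of detected genes as a covariate (adjusted p = 0.957 by edgeR).

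OPC markers were higher in the same mutant libraries. Their summed level ranged from 84.3 to 129 CPM in controls and from 237 to 737 CPM in mutants, with 5 of 6 at an unadjusted edgeR p under 0.05 and higher, Cspg4 at 0 in control 3 and C1ql1 at 0 in controls 2 and 3. In single cells Epha4 was highest in the Enpp6 OPC-like cluster, with 4 of 6 OPC and 2 of 7 oligodendrocyte markers. The tanycyte-like cluster did not differ from it beyond counting error, and cells with tanycyte markers held 52.8% of Epha4 UMIs. Epha4 was lower in the cycling OPC-like cluster, which had 6 of 6 OPC markers. BrafV600E 1, with 556 CPM of OPC markers, had the lowest Epha4 level of the mutants. The part of OPCs, or of any other cell type, in the Epha4 level was not tested.

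Epha5 (chromosome 5, 84054761 to 84417382, minus strand) was at 18.9, 6.31 and 11.5 CPM in controls and at 14.0, 19.7, 18.2 and 22.2 CPM in mutants. Control 1 reached into the range of the mutants, and the log2 fold change was 0.60 ± 0.46 (adjusted p = 0.8 by edgeR). It was 1.03 without control 1, 0.30 without control 2, 0.15 with the detected-genes covariate and 0.08 without the 3 libraries of fewest detected genes. Pars tuberalis markers, whose cells led for Epha5 in single cells, summed to 2310 to 12800 CPM in controls and 709 to 3800 CPM in mutants. Cga and Chga made up most of these sums, and Tshb went the other way (log2 fold change 0.56). Control 1, with the 12800 CPM, also held the pituitary hormone gene Prl at 3970 CPM, against 0.622 and 1.54 CPM in controls 2 and 3. The part of other pituitary tissue in these sums was not tested. OPC markers, whose cycling cells held Epha5 at a level overlapping that of the pars tuberalis-like cluster, summed to 84.3 to 129 CPM in controls and 237 to 737 CPM in mutants. The part of either cell type in the Epha5 level was not tested.

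Ephb2 (chromosome 4, 136647539 to 136835988, minus strand) was at 7.34, 3.82 and 12.6 CPM in controls and at 7.19, 10.7, 13.0 and 11.4 CPM in mutants, with overlap and a log2 fold change of 0.42 ± 0.54 (adjusted p = 0.892 by edgeR). Without control 2 it was 0.11, and without control 3 it was 0.93. Ephb4 (chromosome 5, 137350109 to 137378669, plus strand) was at 37.2, 23.7 and 7.62 CPM in controls and at 28.1, 23.3, 18.9 and 17.2 CPM in mutants. All mutants lay within the range of controls. Its log2 fold change was -0.06 ± 0.49 (95% interval -1.15 to 1.03, adjusted p = 0.984 by edgeR), and its sign turned in other settings. Without the 3 libraries of fewest detected genes, which leaves control 1 as the only control, it was -0.9.

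Efna1 (chromosome 3, 89271733 to 89281142, minus strand) had the largest fold change of the list in the edgeR fit, though Epha4 was larger in size without control 3, with the detected-genes covariate and without the 3 libraries of fewest detected genes. It was at 20.2, 46.7 and 83.0 CPM in controls and at 23.0, 8.44, 15.5 and 8.04 CPM in mutants. A total of 3 mutants lay below every control, and mutant 1 lay above control 1. The log2 fold change was -1.86 ± 0.53 (95% interval -3.02 to -0.69, adjusted p = 0.428 by edgeR), and DESeq2 gave an adjusted p of 0.0491.

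Without control 3 the log2 fold change of Efna1 was -1.25, with the number of detected genes as a covariate -0.69 (adjusted p = 0.961 by edgeR), and without the 3 libraries of fewest detected genes -0.93, so its size moved with these settings. Markers of the cells that carry it also differed: VLMC markers summed to 1170 to 2920 CPM in controls and 380 to 803 CPM in mutants, with 3 of the 5 tested lower at an unadjusted edgeR p under 0.05 and Igf2 at 0 in controls 2 and 3. Endothelial markers summed to 284 to 453 CPM in controls and 84 to 155 CPM in mutants, with 3 of 7 (Plvap, Emcn and Kdr) lower at the same threshold and none at 0 in any library. Oligodendrocyte markers, whose cells came second for Efna1, summed to 1360 to 2960 CPM in controls and 631 to 1300 CPM in mutants. Of these markers 5 of 7 were lower at the same threshold. The part of any of these cell types in the Efna1 difference was not tested.

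Efna5 (chromosome 17, 62604184 to 62881317, minus strand), the main tanycyte ligand, was at 82.0, 127 and 73.2 CPM in controls and at 85.6, 135, 59.1 and 66.1 CPM in mutants. The groups overlapped, and the log2 fold change was -0.12 ± 0.36 (95% interval -0.91 to 0.67, adjusted p = 0.960 by edgeR). The interval does not exclude a change of up to that size in either direction. Tanycyte markers summed to 933 to 1110 CPM in controls and 789 to 1270 CPM in mutants. The markers did not all go the same way. Of the 7 tested, 2 were higher (Crym and Dio2) and 1 lower (Scn7a) at an unadjusted edgeR p under 0.05.

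Efnb1 (chromosome X, 99136130 to 99148991, plus strand) was at 31.3, 16.5 and 10.3 CPM in controls and at 33.5, 67, 41.6 and 21.6 CPM in mutants. A total of 3 mutants lay above all controls, and mutant 4 lay under control 1. The log2 fold change was 1.08 ± 0.49 (95% interval 0.01 to 2.16, adjusted p = 0.612 by edgeR), or 0.74 without BrafV600E 2. Xist, made by the inactive X of females, was at 134 CPM in mutants 3 and 4 and at or below 1.5 CPM in the other 5 libraries, and the highest Efnb1 level was in mutant 2. High Xist was thus seen only among mutants, so the bulk comparison is unbalanced for it in every gene. The part of sex in the Efnb1 level, or in any other bulk level, was not tested.

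Efnb2 (chromosome 8, 8617434 to 8661242, minus strand) was the only gene of the list whose groups did not overlap. Over all genes tested 9.01% had such groups, so 1 of the 10 lies near that share. Efnb2 was at 7.34, 3.02 and 1.88 CPM in controls and at 7.69, 12.3, 9.19 and 15.4 CPM in mutants. The gap between control 1 and mutant 1 was small beside the spread within each group. The log2 fold change was 1.45 ± 0.63 (95% interval 0.06 to 2.84, adjusted p = 0.597 by edgeR), and 0.75 with the number of detected genes as a covariate. In single cells Efnb2 was highest in pars tuberalis-like and VLMC-like cells. Pars tuberalis markers summed to 2310 to 12800 CPM in controls and 709 to 3800 CPM in mutants, with the limits given for Epha5. VLMC markers summed to 1170 to 2920 CPM in controls and 380 to 803 CPM in mutants. The part of either cell type in the Efnb2 level was not tested.

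Efnb3 (chromosome 11, 69554092 to 69560205, minus strand) was at 55.0, 61.7 and 19.9 CPM in controls and at 47.6, 93.7, 67.8 and 37.0 CPM in mutants. The groups overlapped, and the log2 fold change was 0.44 ± 0.45 (adjusted p = 0.860 by edgeR). It was 0.10 without control 3, 0.73 without control 2, 0.17 without BrafV600E 2, 0.02 with the detected-genes covariate and 0.29 without the 3 libraries of fewest detected genes. The summed level of oligodendrocyte markers, whose cells led for Efnb3, ranged from 1360 to 2960 CPM in controls and from 631 to 1300 CPM in mutants, with 5 of 7 lower at an unadjusted edgeR p under 0.05. Neuron markers summed to 501 to 795 CPM in controls and 524 to 976 CPM in mutants, with 2 of 7 higher at that threshold. The part of either cell type in the Efnb3 level was not tested.

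**Figure D4:**
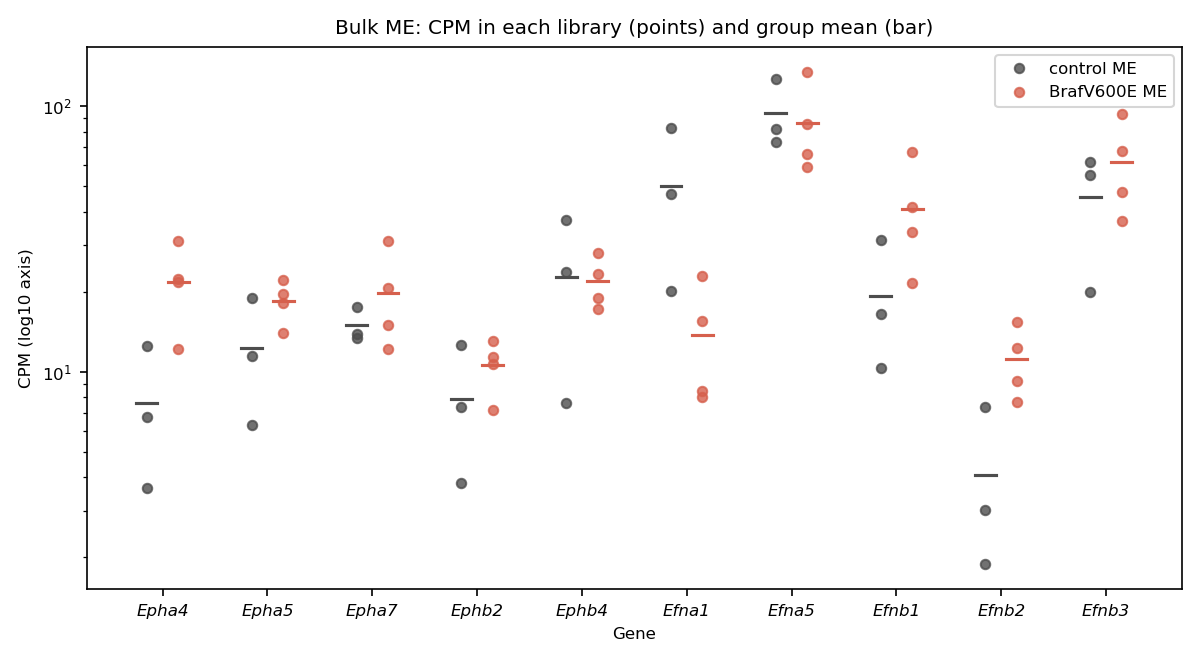
Points are CPM of each gene in 3 control (grey) and 4 BrafV600E (red) libraries on a log10 axis, and bars are group means. Only for Efnb2 do all mutants (7.69 to 15.4 CPM) lie above all controls (1.88 to 7.34 CPM), and for Efna1 3 of 4 mutants lie below the lowest control (20.2 CPM). Groups did not overlap for 9.01% of all genes tested.

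The 12 other genes of the family showed no unadjusted p under 0.05, no separation of groups and a median log2 fold change of 0.17. Among 29 genes for partners of Eph signalling, such as adaptors, kinases and proteases, 0 had an unadjusted edgeR p under 0.05. Of these partners 20 lay above 0 and the median was 0.31, beside 11607 of all 20466 genes tested above 0 and a median of 0.13. In 2 of them the groups did not overlap, no larger a share than the 9.01% of all genes tested, both higher in mutants. They were Vav3, a signalling protein recruited by Eph receptors, with 1.55 ± 0.74, and Grip1, a scaffold that binds ephrin-B tails, with 1.83 ± 1.06. Control 3, the library with fewest detected genes, held Vav3 at 0.685 CPM and Grip1 at 0 CPM. Kalrn, a signalling protein downstream of EphB, came next at 1.30 ± 0.76, with 0.799 CPM in control 2. The lowest were Rac1, a small GTPase of the actin cytoskeleton, at -0.96 ± 0.65, and Sdcbp, a scaffold for ephrin-B, at -0.66 ± 0.38. Psen2, a catalytic subunit of gamma-secretase, followed at -0.57 ± 0.32. Rac1 was at 42.1, 28.3 and 200 CPM in controls and at 54.5, 23.9, 28.4 and 79 CPM in mutants. For Rac1 only control 3 lay above every mutant.

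**Figure D5:**
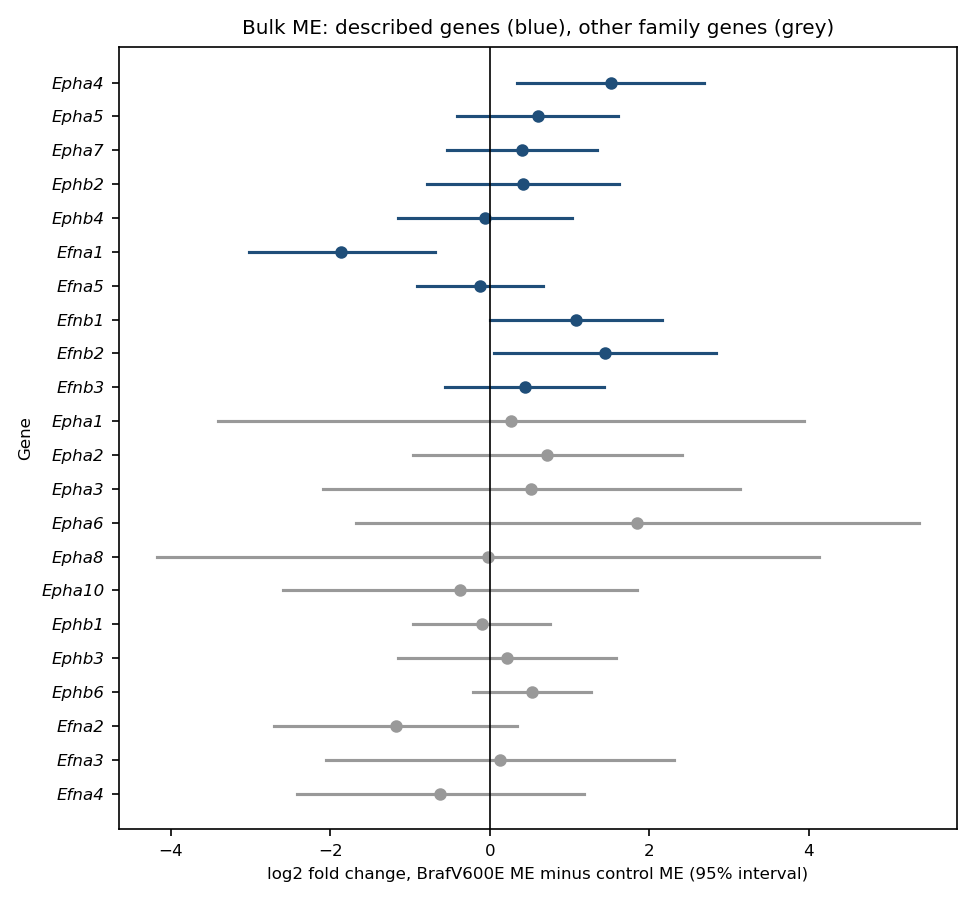
Points are log2 fold changes, BrafV600E minus control, and lines 95% intervals from edgeR, for the 10 described genes (blue) and the 12 others of the family (grey). The intervals of Epha4, Efna1, Efnb1 and Efnb2 exclude 0 before adjustment for the genes tested, and those of the other described genes and of all 12 others include it.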

How the data were processed

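The described genes and all gene lists were chosen with earlier results of these data known. The authors deposited UMI counts per gene and cell, from Cell Ranger (2.0.1 in the submitters' processing notes, on GRCm38/mm10), and raw read counts per Ensembl gene for bulk ME libraries made by Smart-seq2. The aligner and counter behind the bulk counts are not given in the sources used here. DESeq2, without a version, is in the submitters' notes, and the study's methods state no test for the bulk comparison.

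Cells were clustered with Seurat 5.3.0 on variable genes (mean expression 0.02 to 8, dispersion above 0.5, counts scaled to 10000), using 20 components and resolution 0.8, with the family's genes left out. Scrublet (scanpy 1.11.5, rate set to 0.06) called 3 of 990 cells (0.303%) as doublets, too few for the caller to be relied on, and all cells were kept. All described genes are named, as are other family genes at 10 CPM or more in a cluster or with separate bulk groups, the 3 partners of largest and the 3 of smallest fold change, and the 3 genes nearest in pattern.

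Bulk counts were normalised by TMM, filtered by filterByExpr and tested with edgeR 4.0.16 (quasi-likelihood, Benjamini-Hochberg adjusted p below 0.05). Alternatives were DESeq2 1.42.0, limma-voom (limma 3.58.1), other scalings and filters, a replicate block and each library left out. The study's methods count 3 and 4 mice, while the labels do not say that the libraries were separate animals, in which case p-values measure only the spread between libraries. In data simulated for BrafV600E against control ME over 20466 genes, 20% of 200 genes changed 4-fold and 62% of those changed 16-fold were recovered, with 3 and 5 unchanged genes called. A level of 3 counts is 0.217 to 0.609 CPM in the bulk libraries. R 4.3.3, Python 3.11.15, numpy 2.4.6, scipy 1.17.1, pandas 2.3.3 and matplotlib 3.10.9 were used.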

Additional observations from a re-analysis of the deposited data

How the results depend on the processing

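The level of Epha7 in cells with tanycyte markers stayed within its counting interval in all single-cell alternatives run, and its ratio to all other cells ranged from 13.2 to 17.9. For the log2 ratio of cells with tanycyte markers to the highest other cluster, Epha4 turned to 0.49 at resolution 0.4, 0.54 with 10 components, 0.48 with 30 components and 0.49 with all variable genes, against -0.31 as reported, and moved to -1.21 at 3000 UMIs per cell. Ephb2 turned to 0 at resolution 0.4 and with all variable genes, to 0.05 with 30 components and to 0.22 at 3000 UMIs per cell. Ephb4 turned to -0.11 at 3000 UMIs per cell, and Efnb1 to -0.17 at resolution 1.2 and -0.37 at 3000 UMIs per cell. The cause was not tested.

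For bulk ME, the count of genes called was 297 with DESeq2, 1 with upper-quartile scaling, 3 with library sizes alone, 240 with no filter, 13 with at least 10 counts in every library and 14 at an adjusted p under 0.1, and with 1 library left out it ranged from 0 to 45 (45 without control 1 and 16 without control 3). Settings added after the data were seen gave 1 with detected genes as a covariate and 210 without the 3 libraries of fewest detected genes. Of the 10 genes 1, Efna1, was called by DESeq2 (log2 fold change -1.87) and with no filter (-1.89). Ephb4 turned to 0.28 with limma-voom, moved to -0.9 without the 3 libraries of fewest detected genes and ranged from -0.46 to 0.46 with 1 library left out. Efna5 turned to 0.01 with library sizes alone and to 0.1 without the 3 libraries of fewest detected genes, and ranged from -0.41 to 0.19 with 1 library left out. Same-numbered libraries did not deviate together (correlations of -0.454, -0.008 and -0.227). With so few libraries these correlations cannot show whether equal numbers stand for a shared batch, so any pairing stays unknown. With the replicate number as a block, 0 genes were called, none of the 10 among them, and Ephb4 turned to 0.28. Depth limits the scarce genes most: Ephb2 had 57 UMIs, and 3 UMIs in cells with tanycyte markers are 1.36 CPM.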

Other observations

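At resolution 1.2 the tanycyte-like cluster came apart into 2 groups of cells, 1 of 103 cells led by Lect1, Ager and Sfrp5 and 1 of 76 cells led by Cyr61, Sprr1a and Fezf2, each with 7 of 8 tanycyte markers and with median depths of 6714 and 12208 UMIs. Epha7 stood at 46.5 CPM (95% Poisson interval 32.2 to 65.0) in the former and 41.3 CPM (30.1 to 55.2) in the latter, so the receptor was found on both sides of the split. Efna5 was at 249 CPM (214 to 288) and 208 CPM (182 to 237), and Ephb4 at 42.4 CPM (28.8 to 60.2) and 28.4 CPM (19.3 to 40.3), with overlap for both genes. Epha4, at 35.5 CPM (23.2 to 52.1) and 46.8 CPM (34.8 to 61.5), and Efnb2, at 13.7 CPM (6.56 to 25.1) and 4.58 CPM (1.49 to 10.7), overlapped too.

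The VLMC-like cluster divided at the same resolution, for the most part, into groups of 126 and 51 cells. Efna1 was at 31.3 CPM (20.6 to 45.6) and 30.2 CPM (15.1 to 54.0) in them, and Efnb2 at 24.4 CPM (15.1 to 37.2) and 41.1 CPM (23.0 to 67.8), with overlap for both ligands.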
